A study of Homo sapiens with 12 samples.

Results

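The genes of the G1/S transition and of DNA replication form a module of 56 members, taken from a list of symbols. The list was chosen with earlier results of these data known, so shares of members set beside those of all genes are descriptions. It holds the MCM helicase, GINS, the origin recognition complex, the clamp and its loader, the replicative polymerases, nucleotide supply and cyclin E. Each member was read from 1 probe set, the one with the highest mean over the 12 arrays, and all 56 were among the 14725 genes tested, of 19775 genes with a probe set of 1 symbol. The cells were H929, an established human multiple myeloma line (a malignancy of plasma cells), profiled on Affymetrix 3' expression arrays with 3 arrays in each of 4 groups. The shBCL9 group was infected with a hairpin against BCL9, and its reference, shGFP, with a hairpin against GFP; both were sorted for GFP-positive cells. The miR-30 group was transfected with human miR-30a, b, c, d and e, without a statement of whether they were given together, and its reference received cel-miR-67, a worm microRNA. The study asked whether miR-30-5p acts through BCL9, a coactivator of β-catenin in Wnt signalling.

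Before S phase, origins are marked by the origin recognition complex and loaded with MCM2 to MCM7 by CDC6 and CDT1, a step that geminin blocks. CDC7 and cyclin E with CDK2 then start the helicase, which runs together with CDC45 and GINS, and DNA polymerases alpha, delta and epsilon copy the strands with primase, PCNA, its loader RFC and the single-strand binding protein RPA. Many of these genes are transcribed in late G1 through E2F factors, so their messenger RNA follows the share of cells that are cycling; in bulk RNA, a smaller share of such cells and less RNA per cell cannot be told apart.

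The microRNAs of the transfected group share the seed that pairs with target messages, bases 2 to 8, which is why they are shown; it is in capitals. The mature 5p sequences in the RefSeq table (GRCh38.p14) were 3.
miR-30a-5p: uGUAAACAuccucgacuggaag
miR-30c-5p: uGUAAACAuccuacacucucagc
miR-30e-5p: uGUAAACAuccuugacuggaag
All 3 had the seed GUAAACA and differed only after it.

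Promoters are shown for the members with the clearest changes, as 250 bases before to 50 bases after a start listed for the gene in RefSeq (GRCh38.p14), 5′ to 3′ on the gene's strand. PRIM1 and PRIM2, the subunits of primase, had the smallest adjusted p among the members higher with shBCL9 and among those lower with shBCL9 that have a promoter entry; CDC25A had the smallest in the transfected arm; and MCM6, called higher in both arms, was added after its values were seen. PRIM1 lay at chr12:56752274-56752573 on the minus strand, PRIM2 at chr6:57314555-57314854 on the plus strand (the first of its 2 entries), CDC25A at chr3:48188368-48188667 on the minus strand and MCM6 at chr2:135876394-135876693 on the minus strand. The PRIM2 window lay inside the gene's span (57221540 to 57646850) and not at its start, unlike the windows of PRIM1, CDC25A and MCM6. Capitals mark matches to E2F (TTTGGCGC, TTTCCCGC, TTTCGCGC or TTTGCCGC) or NF-Y (CCAAT) motifs on either strand.
PRIM1: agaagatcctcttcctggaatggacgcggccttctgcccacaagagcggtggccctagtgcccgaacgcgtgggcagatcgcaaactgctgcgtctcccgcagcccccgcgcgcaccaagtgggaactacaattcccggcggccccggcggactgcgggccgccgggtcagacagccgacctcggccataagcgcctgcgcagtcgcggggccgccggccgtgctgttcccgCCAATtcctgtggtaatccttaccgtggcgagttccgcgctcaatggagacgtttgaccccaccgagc
PRIM2: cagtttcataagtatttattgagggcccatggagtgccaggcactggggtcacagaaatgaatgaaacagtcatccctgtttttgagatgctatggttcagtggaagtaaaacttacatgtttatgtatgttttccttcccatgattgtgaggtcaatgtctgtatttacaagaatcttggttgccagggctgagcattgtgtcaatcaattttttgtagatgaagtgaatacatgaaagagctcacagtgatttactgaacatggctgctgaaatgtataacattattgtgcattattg
CDC25A: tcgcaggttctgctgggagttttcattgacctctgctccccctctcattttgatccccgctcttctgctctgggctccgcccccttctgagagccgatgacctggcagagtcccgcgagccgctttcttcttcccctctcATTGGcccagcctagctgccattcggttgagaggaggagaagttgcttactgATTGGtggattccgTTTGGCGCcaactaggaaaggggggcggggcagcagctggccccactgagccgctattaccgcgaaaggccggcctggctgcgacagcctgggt
MCM6: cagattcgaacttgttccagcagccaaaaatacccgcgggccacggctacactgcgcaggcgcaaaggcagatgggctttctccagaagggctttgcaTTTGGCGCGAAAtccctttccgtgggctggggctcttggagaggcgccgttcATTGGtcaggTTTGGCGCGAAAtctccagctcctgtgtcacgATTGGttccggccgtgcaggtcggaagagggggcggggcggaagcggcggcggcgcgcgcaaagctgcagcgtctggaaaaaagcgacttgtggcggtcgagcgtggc
PRIM1 held 1 CCAAT, and CDC25A held 1 E2F match and 2 CCAAT matches on the minus strand. MCM6 held 2 places where E2F matches on both strands overlapped and 2 CCAAT matches on the minus strand. The PRIM2 window, which lay inside the gene, held neither motif. A promoter entry was found for 49 of the 56 members. An E2F motif stood in 23 of these 49 (46.9%), against 4.94% of the 11677 tested genes with an entry. Its share was similar in members called higher with miR-30 (10 of 21, 47.6%) and in those called higher with shBCL9 (7 of 16, 43.8%). CCAAT stood in 29 of 49 (59.2%, against 36.3% of all). The CHR motif TTTGAA, named for cell cycle genes of G2 and mitosis, stood in 1 of 49 (2.04%, against 10.2% of all), and the Wnt effectors' TCF/LEF motif (CTTTGAT, or CTTTGAA, which contains the CHR letters) in 1 of 49, TIMELESS (2.04%, against 4.42% of all). The E-box of MYC, CACGTG, stood in 8 of 49 (16.3%, against 9.87% of all). A match is a description of letters in the window and not a measured binding site.

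Values are log2 intensities on the authors' normalised scale, and differences are given as log2 with limma's standard error (SE) and p adjusted over all genes tested, called at 0.05. The check of the hairpin came first: BCL9 measured 7.73, 7.61 and 7.85 in the shBCL9 arrays, against 7.88, 7.90 and 7.88 in the shGFP arrays, which is lower without overlap but by only 0.15 (adjusted p = 0.0874; exact two-sided permutation p = 0.1, the smallest that 3 against 3 arrays allow). It measured 7.99, 8.05 and 7.83 in the arrays labelled miR-30, against 7.82, 7.86 and 7.79 in the cel-miR-67 arrays, a difference of 0.14 in the other direction (adjusted p = 0.269; exact p = 0.2), so these groups are named by their labels. Arrays of a group correlated at 0.997 to 0.998, and array medians ran from 5.46 to 5.53. All 10 plasma cell markers were above the filter level in every group, at a mean of 12.08 to 12.09 in shBCL9, 12.01 to 12.06 in shGFP, 11.42 to 11.45 in miR-30 and 11.48 to 11.50 in cel-miR-67 arrays; with shBCL9, SDC1 rose by 0.88 and CD38 by 0.71 while FGFR3 fell by 0.80. Of markers of other cells, 3 to 4 of 5 for B cells, 2 to 3 of 6 for T and NK cells, 2 to 3 of 5 for myeloid cells and 4 to 5 of 7 for stromal and epithelial cells were above that level. The signal of 18S ribosomal RNA was 13.23 ± 0.02 in shBCL9 and 12.38 ± 0.07 in shGFP arrays, and 12.64 ± 0.04 in miR-30 and 12.50 ± 0.05 in cel-miR-67 arrays (SD, n = 3 each). The ACTB 3′ minus 5′ signal, a sign of RNA length, was 1.67 ± 0.08 in shBCL9 and 1.30 ± 0.11 in shGFP arrays, and 2.07 ± 0.01 in miR-30 and 2.16 ± 0.09 in cel-miR-67 arrays. The 18S signal did not overlap between the groups of either arm, and its part in the results below was not tested beyond the fits with it as a covariate.

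With shBCL9, the replication genes moved by small amounts and mostly upward. Primase's catalytic subunit PRIM1, the origin factor MCM10 and the GINS subunits GINS1 and GINS4 rose by 0.41 to 0.50, and thymidine kinase, CDT1 and CDC25A rose too. Both E cyclins, the primase subunit PRIM2 and the RPA subunit RPA2 fell. In all, 19 of 56 members were higher with shBCL9 (33.9%, against 18.7% of all genes tested) and 5 were lower (8.93%, against 22.9%), while 32 did not pass. A positive sign was found in 42 of 56 members (75%), against 54.9% of all genes, and the median difference was 0.11, against 0.03. With each array centred on its median 13 of 56 members were higher and 6 lower, among 2132 higher and 3670 lower of 14725 genes. With 18S as a covariate no member passed in either direction, among 3 higher and 8 lower genes in all. With the ACTB signal as a covariate 4 of 56 members were higher, among 1075 of 14725 genes in all. The share of members higher was then near that of all genes. In that fit 3 members were lower, among 1892 genes in all.

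**Figure D1:**
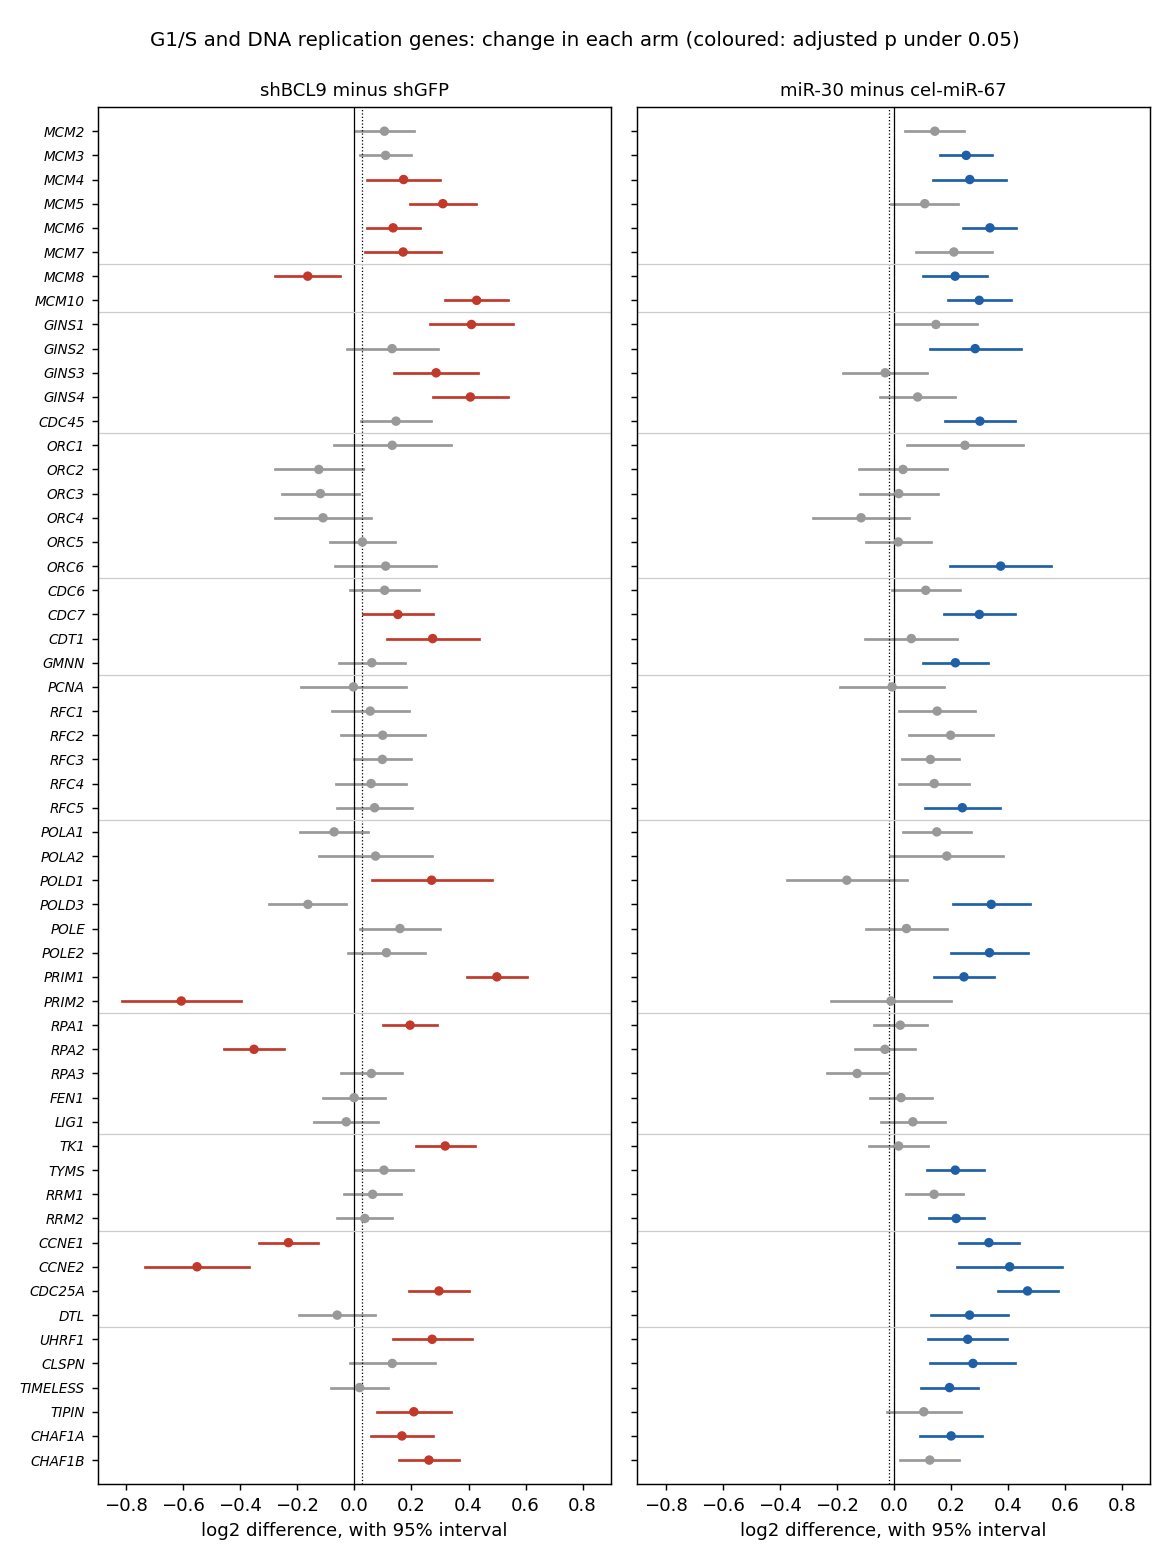
Log2 difference of each of the 56 members (rows, grouped by role) with its 95% interval, shBCL9 minus shGFP on the left and miR-30 minus cel-miR-67 on the right. Coloured points have an adjusted p under 0.05, grey points do not, and the dotted line is the median of all genes tested; 19 members lie to the right and 5 to the left in colour in the hairpin arm, and 24 to the right and 0 to the left in the transfected arm.

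Among the MCM2 to MCM7 subunits of the helicase, 4 of 6 rose with shBCL9 and none fell, with a median difference of 0.15. MCM5 measured 10.58, 10.55 and 10.57 in the shBCL9 arrays, against 10.26, 10.25 and 10.25 in the shGFP arrays, a rise of 0.31 (SE 0.05, adjusted p = 5.76e-04). MCM4 measured 10.81, 10.83 and 10.87 in shBCL9, against 10.60, 10.64 and 10.76 in shGFP (0.17, SE 0.06, adjusted p = 0.0322). Every shBCL9 array of both genes stood above every shGFP array. MCM6 measured 12.21, 12.25 and 12.24 in shBCL9, against 12.13, 12.09 and 12.07 in shGFP (0.14, adjusted p = 0.0227), but its other probe set differed by -0.21. MCM7 measured 10.93, 10.93 and 10.89 in shBCL9, against 10.85, 10.66 and 10.73 in shGFP (0.17, adjusted p = 0.0418). The groups did not overlap for either, but MCM6 had probe sets of opposite sign. MCM2 and MCM3 missed the threshold: MCM2 measured 10.79, 10.71 and 10.73 in shBCL9, against 10.64, 10.60 and 10.67 in shGFP (0.11, adjusted p = 0.0949), and MCM3 measured 11.19, 11.19 and 11.23 in shBCL9, against 11.11, 11.08 and 11.10 in shGFP (0.11, adjusted p = 0.052).

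MCM10, which binds the loaded helicase when origins fire, rose: it measured 9.91, 9.98 and 9.83 in shBCL9 arrays, against 9.44, 9.48 and 9.52 in shGFP arrays (0.43, SE 0.05, adjusted p = 2.72e-05). Its groups lay far apart, with the lowest shBCL9 array well above the highest shGFP array. MCM8, a related helicase used in recombination repair, moved the other way, at 6.52, 6.64 and 6.53 in shBCL9 arrays, against 6.72, 6.69 and 6.78 in shGFP arrays (-0.16, adjusted p = 0.0243). For MCM8 the probe sets above the filter level did not share a sign, and with the mean of its probe sets the difference was -0.06.

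GINS, which joins CDC45 and MCM2 to MCM7 in the active helicase, had 3 of its 4 subunits called higher, and of these with CDC45 no member was lower. GINS1 measured 10.14, 10.16 and 10.06 in shBCL9 arrays, against 9.61, 9.76 and 9.76 in shGFP arrays (0.41, SE 0.07, adjusted p = 3.52e-04). GINS4 measured 8.14, 8.15 and 8.05 in shBCL9 arrays, against 7.71, 7.72 and 7.70 in shGFP arrays (0.41, SE 0.06, adjusted p = 1.79e-04). For both, each shBCL9 array was above all shGFP arrays by more than the arrays of a group differed. GINS3 rose by 0.29. CDC45, the helicase cofactor, measured 9.09, 9.05 and 8.96 in shBCL9 arrays, against 8.91, 8.89 and 8.85 in shGFP arrays, and missed the threshold (0.15, adjusted p = 0.0567).

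None of the 6 origin recognition subunits was called with shBCL9; their differences ran from -0.12 to 0.13. Of the licensing and firing factors, the MCM loader CDT1 rose by 0.27 and the origin kinase CDC7 by 0.15, while the loader CDC6 (0.11) and the CDT1 inhibitor geminin, GMNN (0.06), did not pass. None of the clamp PCNA and the 5 RFC subunits passed, with differences from -0.00 to 0.10. The lagging-strand nuclease FEN1 (-0.00) and the ligase LIG1 (-0.03) did not pass.

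Primase's subunits moved in opposite directions. PRIM1, which makes the RNA primer and whose promoter is printed above, measured 11.04, 11.08 and 10.97 in shBCL9 arrays, against 10.52, 10.58 and 10.50 in shGFP arrays, a 1.41-fold rise (0.50, SE 0.05, adjusted p = 4.67e-06). PRIM2, the large regulatory subunit, measured 6.32, 6.49 and 6.50 in shBCL9 arrays, against 6.91, 7.09 and 7.13 in shGFP arrays (-0.61, SE 0.10, adjusted p = 2.91e-04). Neither subunit's arrays overlapped between the groups. Of the polymerase subunits, the catalytic subunit of delta, POLD1, rose by 0.27; POLA1, POLA2, POLD3, POLE and POLE2 did not pass. The delta subunit POLD3 measured 8.18, 8.24 and 8.16 in shBCL9 arrays, against 8.28, 8.45 and 8.35 in shGFP arrays (-0.16, adjusted p = 0.0523). In the single-strand binding protein, RPA1 rose by 0.20, RPA3 did not pass (0.06), and RPA2 fell: it measured 9.14, 9.15 and 9.11 in shBCL9 arrays, against 9.52, 9.41 and 9.51 in shGFP arrays (-0.35, SE 0.05, adjusted p = 9.77e-05). The 3 subunits of that complex thus gave a rise, a fall and no call.

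In nucleotide supply, thymidine kinase TK1, the salvage enzyme for thymidine, measured 9.94, 9.92 and 9.96 in shBCL9 arrays, against 9.64, 9.58 and 9.64 in shGFP arrays (0.32, SE 0.05, adjusted p = 1.85e-04). Thymidylate synthase TYMS and the ribonucleotide reductase subunits RRM1 and RRM2 did not pass (0.04 to 0.10). TK1 was the only one of these 4 that passed, without overlap between the groups.

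Of the G1/S regulators, both E cyclins, which activate CDK2, fell. CCNE2 measured 8.28, 8.37 and 8.39 in shBCL9 arrays, against 8.71, 8.87 and 9.12 in shGFP arrays (-0.55, SE 0.08, adjusted p = 2.18e-04), and its other probe set differed by -0.83. CCNE1 measured 8.98, 8.98 and 8.92 in shBCL9 arrays, against 9.11, 9.23 and 9.23 in shGFP arrays (-0.23, SE 0.05, adjusted p = 0.002). The groups did not overlap for either, though a dim second probe set of CCNE1, below the filter level, differed by 0.30. The phosphatase CDC25A, which removes the inhibitory phosphate from CDK2, rose: it measured 9.34, 9.40 and 9.33 in shBCL9 arrays, against 9.03, 9.08 and 9.08 in shGFP arrays (0.30, SE 0.05, adjusted p = 3.66e-04). DTL, which targets CDT1 for destruction in S phase, did not pass (-0.06). In fork protection and chromatin, the methylation maintenance factor UHRF1 rose by 0.27, the fork factor TIPIN by 0.21 and the histone chaperone subunits CHAF1A by 0.17 and CHAF1B by 0.26, while CLSPN and TIMELESS did not pass.

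In the transfected arm the members that passed all went up with miR-30. They included the phosphatase CDC25A (0.47), both E cyclins (0.33 and 0.41), 3 subunits of the helicase, the origin subunit ORC6 (0.37) and the polymerase epsilon and delta subunits POLE2 and POLD3 (0.34 each). In all, 24 of 56 members were higher with miR-30 (42.9%, against 2.34% of all genes tested), none was lower (0%, against 2.63%), and 32 did not pass. Differences were positive in 49 of 56 (87.5%), against 44.5% of all genes, with a median of 0.17, against -0.02. The count fell whichever array of the arm was left out: 11, 10 and 11 members were called without cel-miR-67 replicate 1, 2 and 3, and 16, 10 and 14 without miR-30 replicate 1, 2 and 3. Over all genes the count fell too, from 345 to between 188 and 257, and the member median ran from 0.155 to 0.180. With arrays centred on their medians the member count was 15, with only the 6 arrays of the arm 13 and with 18S as a covariate 2. Over all genes the counts higher in these fits were 268, 230 and 41, and no member was lower in any of them.

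**Figure D2:**
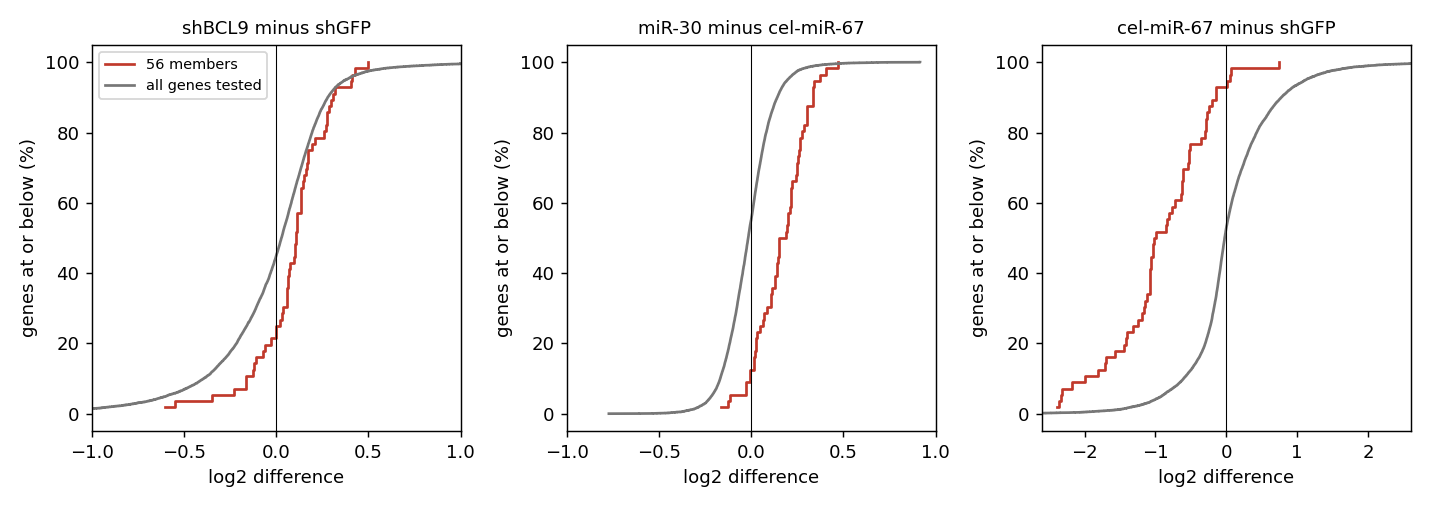
Share of genes (percent, vertical axis) at or below each log2 difference (horizontal axis), for the 56 members in red and all 14725 genes tested in grey, in 3 comparisons. The red line lies right of the grey one over most of its course in the panels of both treatments. Medians are 0.11 (all genes 0.03) for shBCL9 and 0.17 (all genes -0.02) for miR-30. In the panel of the controls the red line lies left of the grey one, with a median of -1.01 (all genes -0.02). Outside the axes lie 280 genes in the shBCL9 panel and 81 in the panel of the controls.

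CDC25A measured 8.07, 8.08 and 8.10 in the miR-30 arrays, against 7.54, 7.66 and 7.65 in the cel-miR-67 arrays. CDC25A thus rose 1.38-fold (0.47, SE 0.05, adjusted p = 2.68e-04). Its other probe sets differed by 0.54 and 0.09. CCNE1 measured 8.10, 8.11 and 8.13 in miR-30 arrays, against 7.76, 7.79 and 7.78 in cel-miR-67 arrays (0.33, SE 0.05, adjusted p = 0.00233). In both genes the arrays of each group lay close together and the groups did not overlap. CCNE2 measured 8.07, 8.18 and 8.23 in miR-30 arrays, against 7.78, 7.74 and 7.74 in cel-miR-67 arrays (0.41, SE 0.08, adjusted p = 0.0171), and its other probe set differed by 0.32. DTL rose by 0.27, so that all 4 G1/S regulators were called.

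Of the helicase subunits MCM3, MCM4 and MCM6 rose. MCM6 measured 11.88, 11.93 and 11.91 in miR-30 arrays, against 11.56, 11.59 and 11.55 in cel-miR-67 arrays (0.34, SE 0.04, adjusted p = 0.00117). MCM3 measured 9.63 in each of the miR-30 arrays, against 9.35, 9.38 and 9.40 in cel-miR-67 arrays (0.25, SE 0.04, adjusted p = 0.00534). MCM6 stayed called in all 19 other settings, as did CDC25A. MCM3 stayed called in 18 of 19 and lost the call only with the 18S covariate. Kept least often were RFC5 (4 of 19), MCM8 (4 of 18), CHAF1A (5 of 18), GINS2 and TIMELESS (6 of 19 each). GMNN kept its call in 7 of 18 settings, and CLSPN and UHRF1 in 8 of 19 each. MCM4 measured 8.57, 8.60 and 8.62 in miR-30 arrays, against 8.29, 8.43 and 8.27 in cel-miR-67 arrays (0.27, adjusted p = 0.0226), with a probe set of the opposite sign among its others. MCM2 measured 8.44, 8.34 and 8.39 in miR-30 arrays, against 8.27, 8.21 and 8.25 in cel-miR-67 arrays (0.14, adjusted p = 0.105). MCM7 measured 8.98, 8.85 and 9.03 in miR-30 arrays, against 8.71, 8.73 and 8.80 in cel-miR-67 arrays (0.21, adjusted p = 0.0716). The groups of these 3 did not overlap, but only MCM4 passed. MCM5 measured 9.11, 8.92 and 9.10 in miR-30 arrays, against 8.96, 8.90 and 8.95 in cel-miR-67 arrays, with overlap (0.11, adjusted p = 0.276).

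MCM10 measured 8.21, 8.17 and 8.24 in miR-30 arrays, against 7.90, 7.94 and 7.89 in cel-miR-67 arrays (0.30, SE 0.05, adjusted p = 0.00646). MCM8 measured 5.89, 5.84 and 5.91 in miR-30 arrays, against 5.70, 5.69 and 5.61 in cel-miR-67 arrays (0.22, adjusted p = 0.0351). Both rose without overlap, but the other probe set of MCM8 above the filter level differed by only 0.003. CDC45 measured 8.09, 7.93 and 7.96 in miR-30 arrays, against 7.67, 7.66 and 7.75 in cel-miR-67 arrays (0.30, SE 0.06, adjusted p = 0.0107). GINS2 rose by 0.29. GINS1 measured 8.62, 8.65 and 8.57 in miR-30 arrays, against 8.34, 8.59 and 8.48 in cel-miR-67 arrays, with overlap (0.15, adjusted p = 0.227). GINS4 measured 7.22, 7.13 and 7.12 in miR-30 arrays, against 6.94, 7.16 and 7.12 in cel-miR-67 arrays, also with overlap (0.08, adjusted p = 0.478). ORC6 was the only one of 6 origin recognition subunits called, and of the licensing and firing factors CDC7 (0.30) and GMNN (0.22) rose while CDC6 (0.11) and CDT1 (0.06) did not pass.

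**Figure D3:**
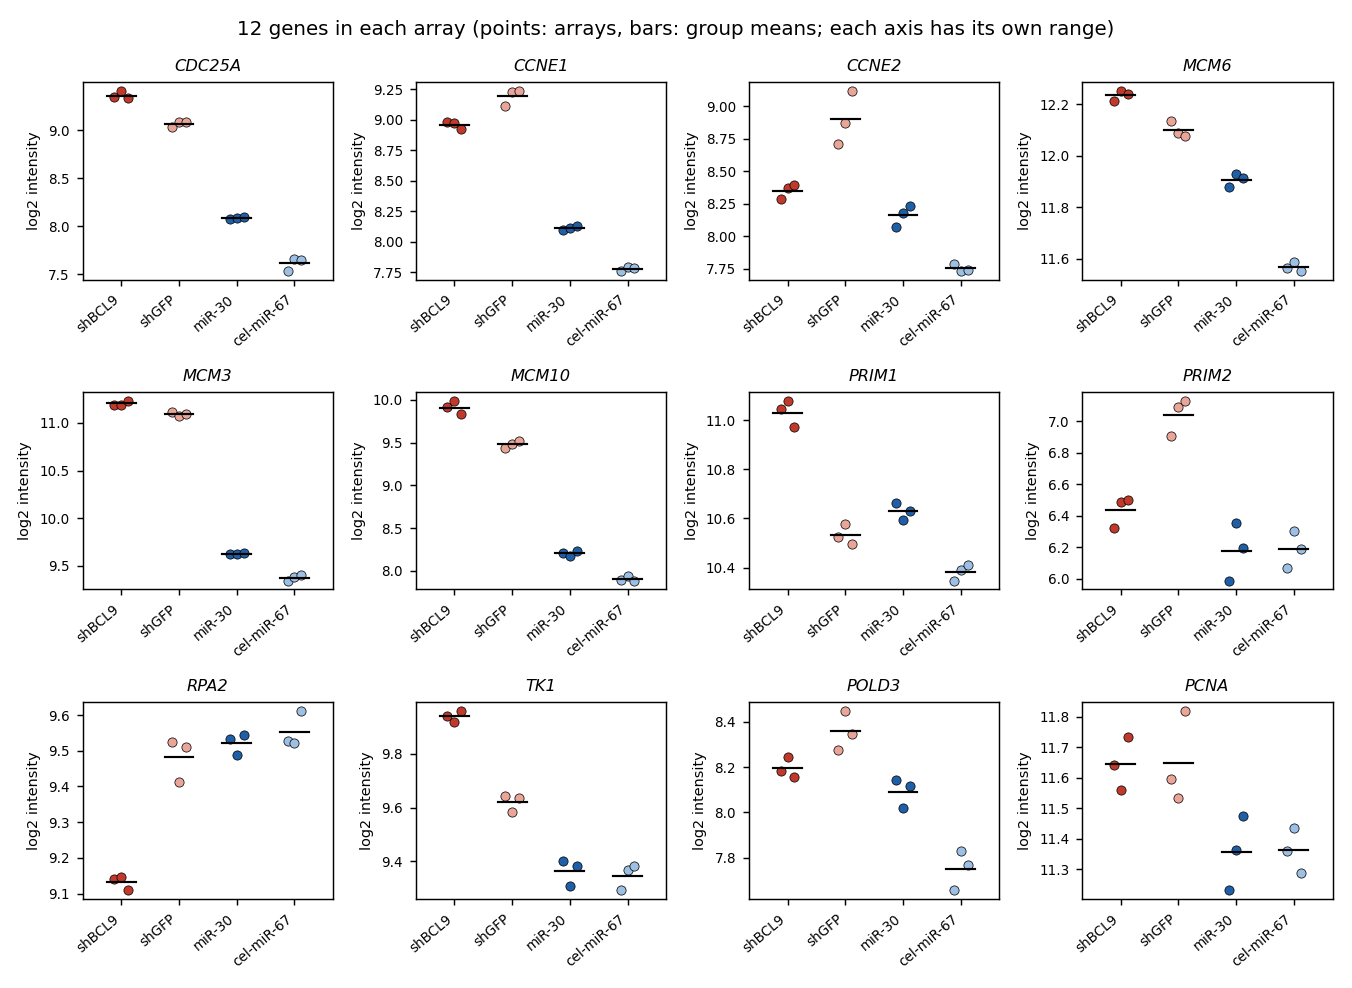
Log2 intensity (vertical axis, a range of its own in each panel) of 12 members in every array, in the order shBCL9, shGFP, miR-30 and cel-miR-67; points are arrays and bars are group means. CCNE1 and CCNE2 are lower in shBCL9 than shGFP and higher in miR-30 than cel-miR-67, PRIM1 is higher in both treatments, and PCNA overlaps between the groups of each arm.

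POLE2, an accessory subunit of polymerase epsilon, measured 7.68, 7.82 and 7.87 in miR-30 arrays, against 7.55, 7.43 and 7.38 in cel-miR-67 arrays (0.34, SE 0.06, adjusted p = 0.00969). POLD3 measured 8.14, 8.02 and 8.12 in miR-30 arrays, against 7.66, 7.83 and 7.77 in cel-miR-67 arrays (0.34, SE 0.06, adjusted p = 0.00921), but its other probe set differed by -0.02. PRIM1 measured 10.66, 10.59 and 10.63 in miR-30 arrays, against 10.35, 10.39 and 10.41 in cel-miR-67 arrays (0.25, SE 0.05, adjusted p = 0.0129). These 3 rose without overlap between the groups. PRIM2 measured 5.99, 6.36 and 6.19 in miR-30 arrays, against 6.07, 6.31 and 6.19 in cel-miR-67 arrays, with nearly equal means (-0.01, adjusted p = 0.966). RPA2 measured 9.53, 9.49 and 9.55 in miR-30 arrays, against 9.53, 9.52 and 9.61 in cel-miR-67 arrays (-0.03, adjusted p = 0.78). TK1 measured 9.40, 9.31 and 9.38 in miR-30 arrays, against 9.29, 9.37 and 9.38 in cel-miR-67 arrays (0.02, adjusted p = 0.884). For PRIM2, RPA2 and TK1 the groups overlapped.

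None of RPA, FEN1 and LIG1 passed with miR-30. The loader subunit RFC5 rose by 0.24, with a probe set of the opposite sign among its others, and TYMS and RRM2 rose by 0.22 each. UHRF1 rose by 0.26, the checkpoint mediator CLSPN by 0.28, the fork factor TIMELESS by 0.20 and CHAF1A by 0.20. PCNA, the sliding clamp, measured 11.23, 11.36 and 11.48 in miR-30 arrays, against 11.36, 11.44 and 11.29 in cel-miR-67 arrays, and 11.64, 11.56 and 11.73 in shBCL9 arrays, against 11.59, 11.53 and 11.82 in shGFP arrays. It overlapped between the groups in both arms (-0.01 and -0.00).

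Of the 24 members called with shBCL9, 14 had another probe set above the filter level, and in 12 of these all such probe sets had the same sign; MCM6 and MCM8 were the exceptions. Of the 24 called with miR-30, 14 had another, and in 11 all signs were the same; MCM4, RFC5 and POLD3 were the exceptions.

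Set side by side, the arms differed in both E cyclins, which had the smallest adjusted p of this contrast among the members. The change with miR-30 minus the change with shBCL9 was positive in 8 members (14.3%, against 14.6% of all genes tested) and negative in 5 (8.93%, against 11.7%), shares near those of all genes. It was 0.96 for CCNE2 (adjusted p = 8.8e-05) and 0.56 for CCNE1 (adjusted p = 6.52e-05), the genes that fell with the hairpin and rose with the microRNAs. MCM8 moved in the same opposed way (0.38, adjusted p = 0.0024), but its other probe set differed by 0.05 with shBCL9 and 0.003 with miR-30. These 3 of 56 members (5.36%) were called lower with shBCL9 and higher with miR-30, against 0.537% of all genes; only 1 was so called without cel-miR-67 replicate 2 or 3 or without miR-30 replicate 2 or 3. POLD3 differed by 0.50 (adjusted p = 0.0011), PRIM2 by 0.60 (adjusted p = 0.00649) and RPA2 by 0.32 (adjusted p = 0.0045), where only 1 of the arms passed on its own. The negative differences were those of TK1 (-0.30, adjusted p = 0.00582), GINS4 (-0.32, adjusted p = 0.015), GINS3, POLD1 and PRIM1, and DTL and MCM6 were the other positive ones. Without a single array the count of 13 ran from 10 to 15. With the ACTB covariate it was 6 and with 18S 0, among 1717 and 19 genes in all, against 3872 in the main fit.

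A further 8 members (14.3%, against 0.652% of all genes) were called higher in both arms: MCM4, MCM6, MCM10, CDC7, PRIM1, CDC25A, UHRF1 and CHAF1A. That count fell when single arrays were left out: it was 4, 5, 5 and 4 without shGFP replicate 2 or 3 or shBCL9 replicate 1 or 2, and 3, 4, 4, 4 and 5 without cel-miR-67 replicate 1, 2 or 3 or miR-30 replicate 2 or 3. With arrays centred on their medians it was 3, among 65 genes in all. In the main fit the count over all genes was 96, and it was 54 to 98 without 1 array. With 19 and 24 of 56 members called higher in the single arms, some overlap follows from those counts, and any excess was not tested. The 3 opposed members are likewise drawn from 5 lower with shBCL9 and 24 higher with miR-30. Over the 56 members the differences in the arms, which share no arrays, correlated at r = 0.05 and rho = 0.09, as a description across genes. Over all genes tested r was 0.13.

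**Figure D4:**
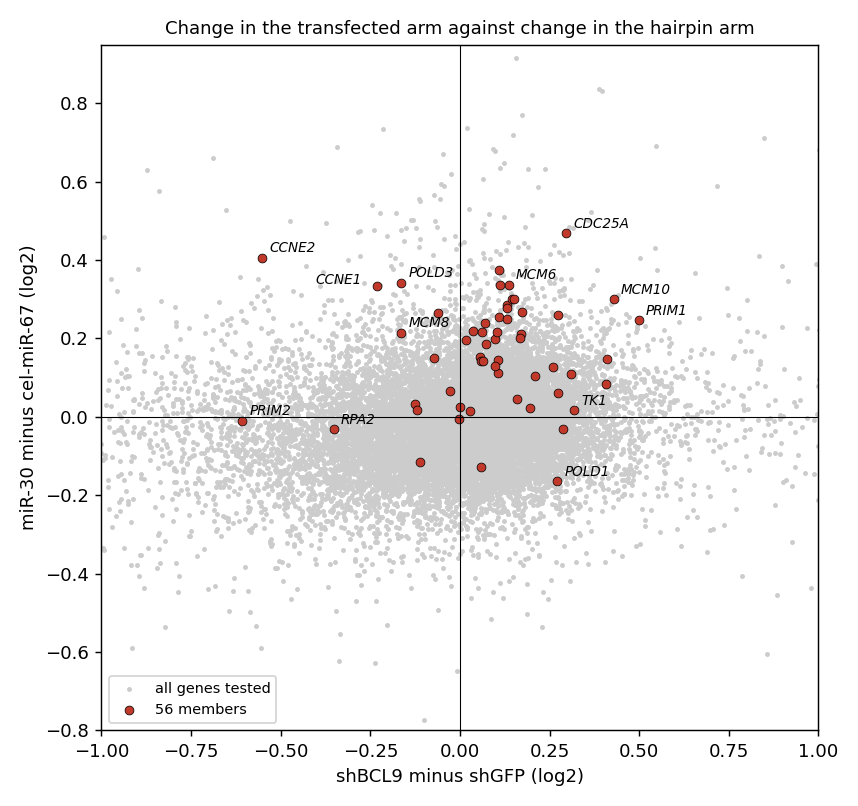
Log2 difference miR-30 minus cel-miR-67 (vertical axis) against shBCL9 minus shGFP (horizontal axis) for all genes tested (grey; some lie outside the axes) and the 56 members (red). CCNE1, CCNE2, MCM8 and POLD3 lie in the upper left, CDC25A, MCM6, MCM10 and PRIM1 in the upper right, and PRIM2 and RPA2 on the left near 0 in the transfected arm.

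Members separated further between the control groups of the arms than within either arm. The controls differ in delivery, in sorting and in any array batch that goes with them; these cannot be told apart, and no test is given. In cel-miR-67 minus shGFP, 28 of 56 members were lower by over 1 on the log2 scale without overlap (50%, against 4.08% of all genes tested), and 52 were lower without overlap by any amount (92.9%, against 31.3%). The median was -1.01, against -0.02 for all genes. Only ORC2 was higher without overlap (0.74), and RFC1, RPA2 and RPA3 overlapped. MCM2 averaged 8.24 in cel-miR-67 arrays, against 10.64 in shGFP arrays, a difference of -2.39, and the transfected arrays of MCM2 all lay below all infected ones. UHRF1 (-2.36), MCM4 (-2.34), POLE2 (-2.32), GINS2 (-2.18), TIPIN (-1.81), MCM3 (-1.72) and ORC1 (-1.69) were also far lower. By role, the median was -1.86 for the helicase subunits MCM2 to MCM7 (MCM6 alone differed by only -0.53), -1.32 for MCM8 and MCM10, -1.28 for G1/S control, -1.23 for fork protection and chromatin, -1.19 for GINS and CDC45, and -1.03 for licensing and firing. It was -0.85 for the clamp and its loader, -0.67 for polymerases and primase, -0.43 for nucleotide supply, -0.30 for origin recognition (in spite of ORC1) and -0.15 for the group of RPA, FEN1 and LIG1. The called rises with miR-30 were thus measured from a level below that of the shGFP cells, by -2.34 in MCM4 but only -0.15 in PRIM1. In MCM4 the miR-30 mean of 8.59 remained below the shGFP mean of 10.66. For PRIM1 the miR-30 mean of 10.63 was above the shGFP mean of 10.53. An E2F motif stood in the promoters of 14 of 25 members lower by over 1 (56%) and in 9 of the other 24 (37.5%), as a description. The ACTB 3′ minus 5′ signal and the plasma cell markers given above differed along with this separation, and their part was not tested.

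**Figure D5:**
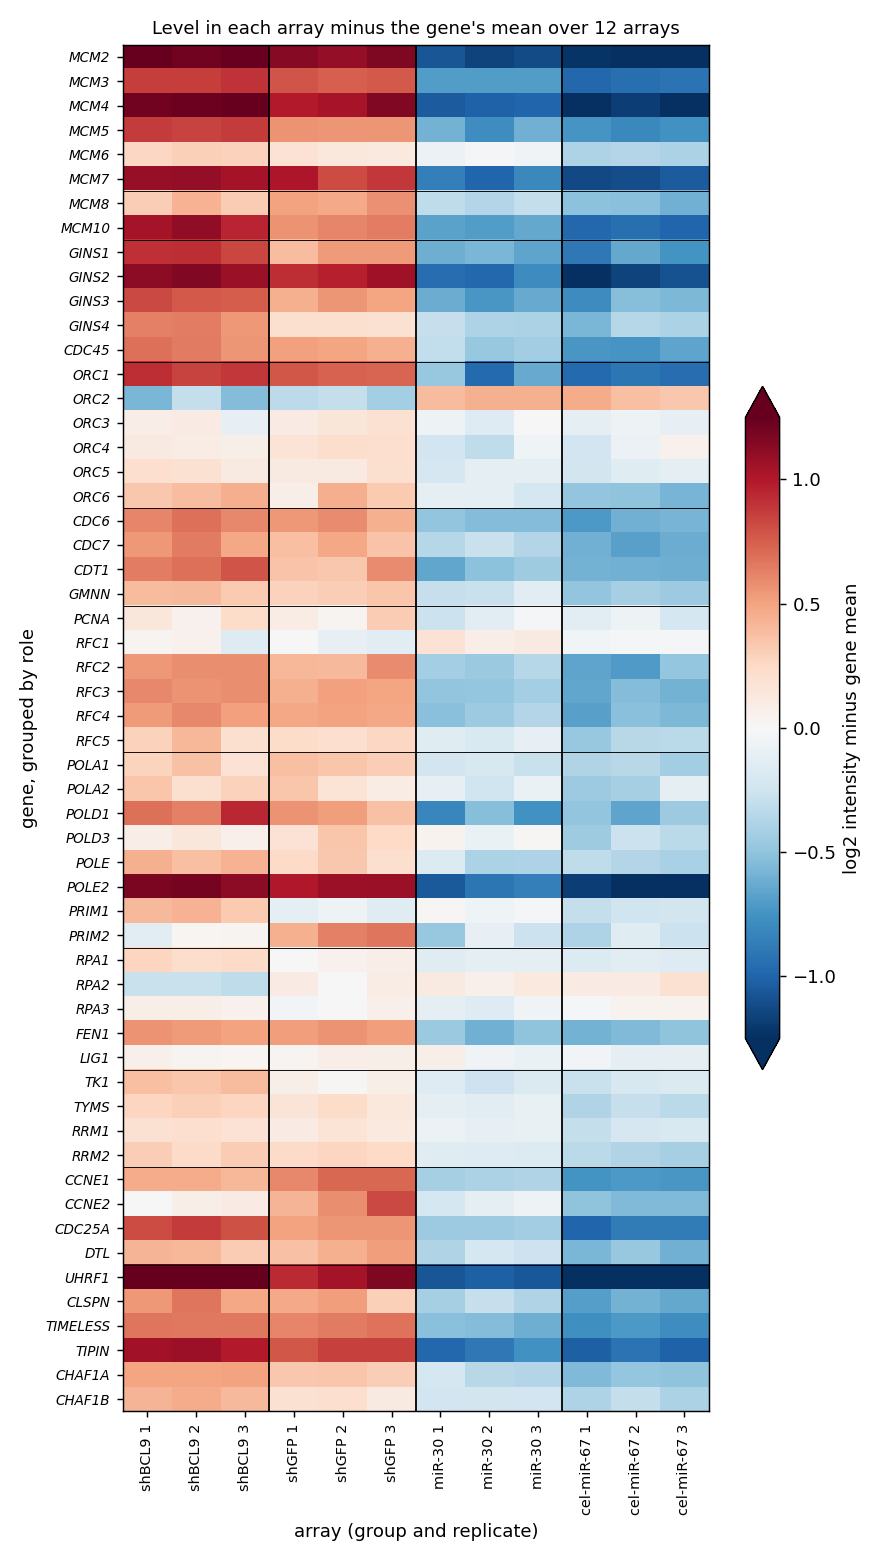
Level of each member (rows, grouped by role) in each of the 12 arrays (columns) minus that gene's mean over the 12, in log2 units (colour scale). Most rows are higher in the 6 infected arrays (shBCL9, shGFP) and lower in the 6 transfected ones (miR-30, cel-miR-67), with a median difference of -1.01 between the controls (cel-miR-67 minus shGFP); ORC2 runs the other way.

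Within an arm, the median member stood above the control mean in each treated array. The median member stood 0.109, 0.115 and 0.084 above the shGFP mean in the shBCL9 arrays, against -0.026, 0.005 and 0.010 in the shGFP arrays themselves. It stood 0.189, 0.143 and 0.190 above the cel-miR-67 mean in the miR-30 arrays, against -0.027, 0.024 and 0.003 in the cel-miR-67 arrays. Members above the control mean numbered 43, 43 and 40 in shBCL9 arrays, against 19, 33 and 32 in shGFP arrays, and 47, 45 and 51 in miR-30 arrays, against 15, 40 and 30 in cel-miR-67 arrays. The treated arrays' counts did not overlap with their controls' in either arm. Each control array is part of the mean it was set against, so control values centre on it by construction and this is no test. Over all genes the median was 0.021, 0.018 and 0.019 in the shBCL9 arrays, against -0.010, 0.002 and 0.005 in the shGFP arrays. In the miR-30 arrays it was -0.015, -0.026 and -0.011, against -0.009, 0.006 and 0.006 in the cel-miR-67 arrays.

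Other genes of the same pathways were read from lists that do not share genes with the members. Of 35 further replication factors tested, 5 were higher (14.3%) and 4 lower (11.4%) with shBCL9, shares below the 18.7% and 22.9% of all genes tested; among them were the histone chaperone ASF1B (0.40), the FACT subunit SSRP1 (0.30) and the polymerase delta subunit POLD2 (0.26) upward and the ribonuclease subunit RNASEH2B (-0.34) downward. With miR-30, 4 were higher (11.4%, against 2.34% of all genes) and none lower: the origin firing factor TICRR (0.64, adjusted p = 3.74e-04), the CDC7 activator DBF4 (0.43), the PCNA-binding protein PCLAF (0.25) and SSRP1 (0.24). Of 16 further G1/S control genes, 6 were higher (37.5%, against 18.7% of all genes) and 4 lower (25%, near the 22.9% of all genes) with shBCL9; the phosphatase CDC25B rose by 0.79 and the CDK inhibitors CDKN1A and CDKN1C by 0.61 and 0.85, while another CDK inhibitor, CDKN1B, fell by 0.60 and the pocket protein RBL2 fell by 0.47. With miR-30, 2 of the 16 were higher (12.5%, against 2.34% of all genes) and 1 was lower (6.25%, against 2.63%). FBXO5, an inhibitor of the anaphase-promoting complex, rose by 0.61 and cyclin A2, CCNA2, by 0.51, while CDKN1A fell by 0.29 (adjusted p = 0.0118). Of 8 fork checkpoint genes, RAD9A (0.42) and RAD1 (0.19), parts of the checkpoint clamp, rose with shBCL9 (25%, not far from the 18.7% of all genes). The kinases WEE1 (0.50, adjusted p = 1.13e-04) and CHEK1 (0.28) rose with miR-30 (25%, against 2.34% of all genes). No others of the 8 passed.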

How the data were processed

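Total RNA of H929 cells was hybridised to 12 Affymetrix arrays, 3 in each of 4 groups taken from the labels. The deposited values are log2 intensities that the authors made with RMA and affy (per the submitters' processing notes), with versions not given in the sources used here; they ran from 2.16 to 14.88. RMA quantile normalization sets a common distribution, so a shift of most genes in 1 direction would not be seen. Of 54675 probe sets, 41097 had 1 gene symbol, 1801 several and 11777 none in GEO's platform annotation; 41043 of the gene IDs matched RefSeq's gene table, with 0 symbols changed. Each gene was represented by its brightest probe set on average across the 12 arrays, which gave 19775 genes. Genes above the 40th percentile of their array in at least 3 arrays were tested (14725 genes; that percentile lay at 4.86 to 4.95 over the arrays).

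A group-means model over all 12 arrays was fitted with limma 3.58.1 (lmFit and eBayes, R 4.3.3), with Benjamini-Hochberg adjustment over all genes tested and a threshold of 0.05; intervals are 95%. Contrasts set shBCL9 against shGFP and miR-30 against cel-miR-67, and a further contrast subtracted the hairpin change from the microRNA change. The fit was tested on simulated data. The labels do not name a culture for each array; p-values therefore measure only the spread between these arrays, and 3 arrays a group limit the precision. No files of scanner intensities or scan dates were used here, so array batches were not examined. The share of members is described beside that of all genes, with no test over the list.

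The members and lists were chosen with earlier results of these data known. Values by array are given for MCM2 to MCM7 and for the 8 members with the smallest adjusted p in each contrast, and in the further pathway lists up to 4 called genes per contrast are named; other named genes, PCNA and CDKN1B among them, were chosen after their values were seen. Promoters and microRNAs came from RefSeq tables of GRCh38.p14. Where a gene had several entries (12 members), the first was used, which for PRIM2 lay inside the gene. Alternatives were other filters, probe set rules, normalizations, samples, variance models, the replicate block, a threshold of 0.01, RNA covariates and leaving out each array. Scripts ran in Python 3.11.15 with matplotlib 3.10.9.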

Additional observations from a re-analysis of the deposited data

Results flagged for a closer look

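For 13 members the change with miR-30 (minus cel-miR-67) differed from the change with shBCL9 (minus shGFP) by limma's test of the difference itself, with p adjusted over all genes tested. The difference, miR-30 change minus shBCL9 change on the log2 scale, was positive for cyclins CCNE2 (0.96) and CCNE1 (0.56), the primase subunit PRIM2 (0.60), the polymerase delta subunit POLD3 (0.50), the MCM paralogue MCM8 (0.38), the ubiquitin ligase adaptor DTL (0.33, adjusted p = 0.0154), the single-strand binding subunit RPA2 (0.32) and the helicase subunit MCM6 (0.20, adjusted p = 0.0274). It was negative for the polymerase delta catalytic subunit POLD1 (-0.44, adjusted p = 0.034), the GINS subunits GINS4 (-0.32) and GINS3 (-0.32, adjusted p = 0.0282), thymidine kinase TK1 (-0.30) and the primase subunit PRIM1 (-0.25, adjusted p = 0.0163). CCNE1, CCNE2 and MCM8 were called in opposite directions in the arms, and MCM6 and PRIM1 in the same direction by different amounts. In the other 8, 1 arm was called and the other was not. The arms also differ in delivery and sorting, which cannot be told apart from the agents.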

How the results depend on the processing

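The count of 19 members higher with shBCL9 became 11 at an adjusted p under 0.01, 4 with the ACTB 3′ minus 5′ signal as a covariate and 0 with 18S as a covariate, and 14 to 16 without 1 array. Over all genes the count of 2749 became 1544 at 0.01, 3 with 18S and 2171 to 2558 without 1 array. With the ACTB covariate it became 1075, so the share of members was then near that of all genes. The count of 5 lower became 3 with the mean of probe sets, 3 with the ACTB covariate and 0 with 18S, and 4 to 6 without 1 array. Over all genes, 3369 lower became 3218 (of 13538), 1892 and 8 in the same order, and 2885 to 3274 without 1 array. The count of 24 higher with miR-30 became 13 with plain probe sets only (of 42 members) and 15 with arrays centred on their medians. It was 13 with only the 6 arrays, 7 at the threshold of 0.01, 2 with 18S, and 10 to 16 without 1 array. Over all genes, 345 became 226 (of 11590), 268, 230, 141 and 41 in the same order, and 188 to 257 without 1 array. The count of lower members was 0 throughout. The count of 13 differences between the arms became 20 with a filter at the 60th percentile and 20 with further quantile normalization. It was 22 with array weights, 21 with trend and robust variance and 7 at 0.01. It was 6 with the ACTB covariate and 0 with 18S, and 10 to 15 without 1 array. Over all genes, 3872 became 4039 (of 11316), 4110, 4902, 4315, 2185, 1717 and 19 in the same order, and 3189 to 3754 without 1 array. For the members called in both arms, the alternatives were chosen after seeing the data. The count of 8 higher in both became 4 with no filter, 4 with plain probe sets, 3 with centred arrays, 3 with only the 6 arrays, 2 at 0.01, 1 with ACTB and 0 with 18S, and 3 to 7 without 1 array. Over all genes, 96 became 69, 66, 65, 56, 35, 25 and 0 in the same order, and 54 to 98 without 1 array. The count of 3 lower with shBCL9 and higher with miR-30 became 1 with the mean of probe sets and 1 at 0.01. It was 0 with 18S, and 1 to 4 without 1 array. Over all genes, 79 became 87, 21 and 0 in the same order, and 34 to 84 without 1 array. The median member difference with shBCL9, 0.106, was 0.122 with plain probe sets, 0.0751 with centred arrays, 0.053 with ACTB, 0.00511 with 18S and 0.0976 to 0.118 without 1 array; that with miR-30, 0.169, ran from 0.155 to 0.180 without 1 array. BCL9 passed in shBCL9 with array weights (-0.169, adjusted p = 0.0261) and without shBCL9 replicate 3 (-0.213, adjusted p = 0.031), and ran from -0.213 to -0.0938 without 1 array; in miR-30 it ran from 0.0926 to 0.202.

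Signs turned in the shBCL9 contrast with 18S for MCM4 (-0.192), MCM5 (-0.0913), CDT1 (-0.353), RPA1 (-0.0108), UHRF1 (-0.438) and TIPIN (-0.0436), with the mean of probe sets for MCM6 (-0.0354) and CCNE1 (0.0341), and in the difference between arms with 18S for MCM6 (-0.0281); none of these turned values passed. The cause was not tested. With the 18S covariate 3 genes of all tested were higher and 8 lower with shBCL9, so that fit leaves little of the contrast for any gene. Of all genes in the transfected arm, 452 were higher and 323 lower with further quantile normalization, against 345 and 388 as reported. Whether the replicate numbers pair the arrays was left undecided, and the main fit did not pair them. After group means were removed, same-numbered arrays correlated at 0.05, 0.10 and 0.07 in the hairpin arm and 0.118, 0.091 and 0.226 in the transfected arm. Arrays of different numbers correlated at -0.149 to 0.065 in the hairpin arm and -0.242 to 0.126 in the transfected arm. With 3 arrays a group these values cannot exclude pairing. With the replicate block, 19 members were higher and 4 lower with shBCL9, 18 higher and 0 lower with miR-30, and 11 differed between the arms. The deposited values carry no background signal, so how far low members such as MCM8, at 5.61 to 6.78, are compressed was not tested.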
